A study of Bos taurus with 2 samples.

Results

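The bovine major histocompatibility complex (MHC) region was taken as chromosome 23 from 25 to 29 Mb of the genome build UMD3.1, the interval that carries the main class I, class IIa and class III genes of the BoLA system. It was divided into windows of 1 kb. A window was kept when at least 3 of its CpG sites had at least 5 reads in both sperm libraries, which gave 3067 of the 4000 possible windows. The same filter kept 45349 windows in the rest of chromosome 23 and 2358306 windows in the whole data set. The rule for a window uses position and coverage and no methylation value, but the region itself was picked with earlier results of these data known.

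The class I and class II genes of the MHC encode the molecules that present peptides to T cells, and the class III segment between them carries complement, cytokine and heat shock genes. In cattle the class II genes are split between distant parts of the chromosome. Sperm DNA of mammals is highly methylated outside CpG-dense promoters and a set of broader domains, and most CpG-dense promoters are free of methylation.

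Whole-genome bisulfite sequencing was applied to sperm from monozygotic Holstein twins, named Bull1 and Bull2. In this method unmethylated cytosines are converted, and the remaining cytosines are read as methylated. Neither bull received a treatment, and both samples were cryopreserved semen collected at the same age within the same week. In the study's records Bull1 had the better average sperm motility. By period, the study reported this difference as significant only in the early months of semen collection, at a younger age than these samples. Each bull gave 1 library, so the animal, the ejaculate and the library cannot be told apart, and p-values compare libraries and not animals. Sperm purity could not be checked from CpG methylation counts of this region.

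CpG methylation of a window was the share of methylated reads among all reads at its usable CpG sites. Differences are given in percentage points as Bull1 minus Bull2. Exact Clopper-Pearson 95% intervals cover counting error only, and they are too narrow because a read is counted at each CpG it covers.

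The CpG-dense interval at the HSPA1 heat shock genes of class III holds the only windows of the region with 41 or more CpG sites that were at least 10 points lower in Bull1, and the study had placed a pyrosequencing amplicon in it. The primers of this assay are shown because they frame the 6 CpG sites that an independent assay can read there. As written for converted DNA the primers hold 0 CG pairs, so no base is in capitals. That count was fixed in advance, because a primer without c or without g cannot hold such a pair. Whether the genomic sequence under the primers holds CpG sites was not examined. The sequences are written 5′ to 3′ as in the study's primer list.
Forward primer: tgttagagtaggtggtgaagatttg
Reverse primer: atccccaaaatacaaaaactactac
Sequencing primer: gggatggtggagttg
The forward and sequencing primers hold no c, as a converted strand without methylated CpG sites would read, and the reverse primer holds no g.

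The MHC region was less completely sequenced than its chromosome. Of its 47114 listed CpG sites 34857 were usable, a share of 74.0% against 88.8% in the rest of chromosome 23. In Bull1 4686 sites of the region (9.95%) had no reads, and in Bull2 4668 sites (9.91%), against 1.23% and 1.24% in the rest of the chromosome. The median listed site of the region had 12 reads in Bull1 and 11 in Bull2. The loss was uneven along the region. From 26 to 26.25 Mb only 8.65% of 1687 listed sites were usable, which left 17 windows, and the flanking bins of 250 kb kept 54.5% and 60.9% of their sites. Within the 3067 kept windows the depth was 17.0 reads per CpG in Bull1 and 15.6 in Bull2, against 19.7 and 17.6 in the rest of the chromosome.

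The MHC region was less methylated than the rest of chromosome 23 in both bulls. In Bull1 405180 of 584297 reads were methylated, a level of 69.3% (69.2 to 69.5), and in Bull2 352607 of 537082 reads, a level of 65.7% (65.5 to 65.8). The rest of chromosome 23 stood at 80.3% in Bull1 and 76.7% in Bull2. The level of the region minus that of its chromosome was -10.96 points in Bull1 and -10.998 points in Bull2. The MHC region differed by 3.69 points between the bulls and the rest of the chromosome by 3.65 points, so the gap between these differences was 0.04 points with a counting interval of -0.26 to 0.34. This gap was -0.79 points as an unweighted mean of site levels and -0.46 points against all other autosomal windows. With 1 library per bull no replicate spread exists against which these differences could be tested.

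Partly methylated windows were more frequent in the region, and highly methylated windows less frequent. Windows between 20% and 80% in both libraries made up 39.1% of the region (1199 windows) against 16.6% of the rest of chromosome 23. Windows of at least 80% in both libraries were 1198 in number, 39.1% of the region against 67.4% of the rest. Windows below 20% in both libraries numbered 194, or 6.33% against 3.27%. The remaining 476 windows fell in different classes in the libraries. The median window had 80.3% methylation in Bull1 and 76.5% in Bull2, with quartiles of 62.1% and 88.2% in Bull1 and 58.9% and 84.3% in Bull2. In the rest of the chromosome the lower quartile was 81.9% in Bull1 and 77.4% in Bull2, so the lower end of the distribution was shifted most. Window levels of the libraries followed each other closely in the region, with a Pearson correlation across 3067 windows of 0.969, a description over windows that share libraries and neighbouring reads.

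**Figure D1:**
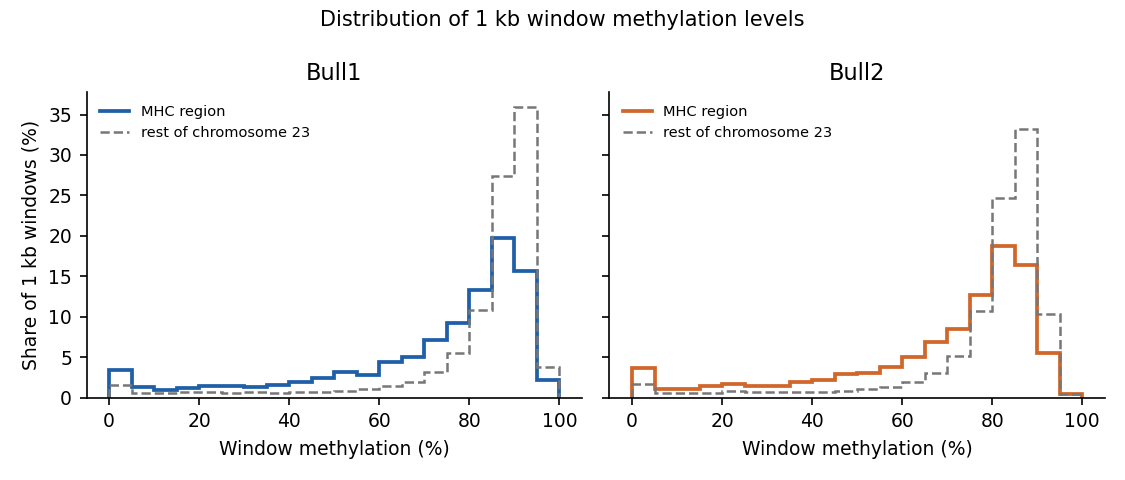
Share of 1 kb windows (%, vertical axis) by window methylation level (%, horizontal axis, steps of 5 points) in Bull1 (left) and Bull2 (right), with the MHC region as a solid line and the rest of chromosome 23 as a dashed line. The MHC curves are flatter in both libraries, with medians of 80.3% in Bull1 and 76.5% in Bull2 against 88.6% and 84.1% in the rest of the chromosome.

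Single sites inside the intermediate windows were both partly and highly methylated. In the intermediate windows of the MHC region 7670 sites had at least 10 reads in both libraries. Of these sites 48.4% were themselves between 20% and 80% in Bull1 and 53.9% in Bull2, and 41.4% were so in both. In Bull1 39.9% of the sites were at 80% or more and 11.6% below 20%. In the intermediate windows of the rest of chromosome 23 the share of sites between 20% and 80% was 41.9% in Bull1 and 48.8% in Bull2. The intermediate windows of the MHC region thus held a larger share of partly methylated sites in each library.

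Other stretches of the genome of the same length put these levels in scale. Among 13 blocks of 4 Mb on chromosome 23, the block from 29 to 33 Mb was the only one with lower levels than the MHC block, at 62.9% in Bull1 and 60.8% in Bull2, and the MHC block had the lowest share of windows of at least 80%. Among 626 such blocks on 29 autosomes, 76 had a lower level than the MHC region in each library, 10 had a smaller share of windows of at least 80% in both, and 144 had a smaller difference between the bulls. The median autosomal block had 81.6% methylation in Bull1 and 77.4% in Bull2. These levels are pooled over reads, so windows with many reads weigh more. The lowest autosomal block in Bull1, chromosome 29 from 29 to 33 Mb, had 31.3% there, but 69.9% of its windows were at 80% or more in both libraries. On chromosome 23 the block from 29 to 33 Mb had a median window of 84.5% in Bull1 and 80.2% in Bull2, above the MHC medians of 80.3% and 76.5%. The MHC region was therefore low in pooled level and, more rarely, low in its share of highly methylated windows.

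CpG density changed the contrast with the rest of the chromosome in form but not in direction. Windows with 3 to 5 listed CpG sites had 71.0% methylation in Bull1 and 66.9% in Bull2 in the MHC region (572 windows), against 80.8% and 76.7% in the rest of chromosome 23. Those with 11 to 20 sites had 77.3% and 73.8% in the region (939 windows), against 84.3% and 80.6%. The region was lower than the rest of the chromosome in each of the 5 density classes in both libraries. Against all windows of the data set it was not lower in the class of 21 to 40 sites. There it had 64.8% in Bull1 and 62.3% in Bull2, against 63.9% and 61.2%. The densest windows, with 41 or more sites (141 windows), stood at 21.8% in Bull1 and 22.2% in Bull2, against 49.9% and 49.1% in the rest. Over all windows of the data set this class stood closer to the region, at 30.7% in Bull1 and 31.3% in Bull2. The median of the dense MHC windows was 3.02% in Bull1 and 2.63% in Bull2, where the rest of chromosome 23 had medians of 49.4% and 46.0%. Of these dense MHC windows 103 (73.0%) were below 20% in both libraries, against 41.9% in the rest of the chromosome and 48.9% over all windows. Intermediate windows were more frequent at low density and made up 51.9% of windows with 3 to 5 sites and 9.93% of windows with 41 or more.

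**Figure D2:**
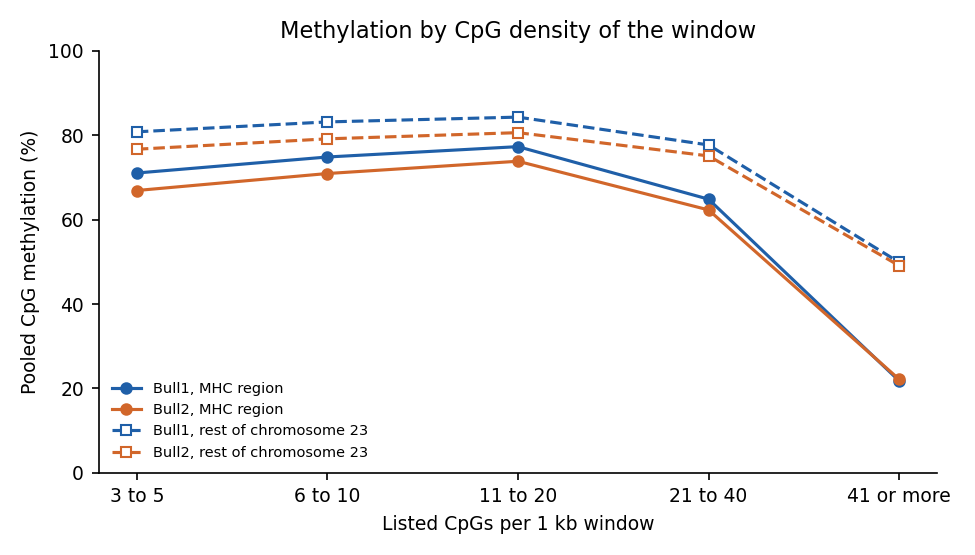
Pooled CpG methylation (%, vertical axis) by the number of listed CpG sites per 1 kb window (5 classes, horizontal axis) for Bull1 (blue) and Bull2 (orange), in the MHC region (filled circles, solid lines) and the rest of chromosome 23 (open squares, dashed lines). The region lies lower in each class, and its densest windows fall to 21.8% in Bull1 and 22.2% in Bull2 against 49.9% and 49.1%.

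The difference between the bulls also moved with density and level. It was 4.14 points in MHC windows with 3 to 5 sites, 3.46 points with 11 to 20 and -0.37 points with 41 or more. The corresponding differences in the rest of chromosome 23 were 4.12, 3.68 and 0.79 points. The negative value of the densest class rested on the 2 HSPA1 windows described further on: without them the other 139 windows had 22.3% in Bull1 and 21.2% in Bull2, a difference of 1.08 points. MHC windows with a pooled level of at least 80% (1432 windows) had 88.4% methylation in Bull1 and 84.8% in Bull2, a difference of 3.53 points. The class from 20% to 40% (192 windows), which holds both HSPA1 windows, had 29.1% and 29.9%, a difference of -0.75 points with a median window difference of 1.41 points. Those below 20% (214 windows) had 6.07% and 5.75%, a difference of 0.31 points. In all, 2202 of 3067 windows (71.8%) had the higher value in Bull1, 856 had it in Bull2 and 9 were equal, where the rest of the chromosome had 78.9% of its windows with the higher value in Bull1. The median window difference in the region was 2.99 points, and 5% to 95% of the windows spanned -6.45 to 13.2 points.

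Along the region the level was not uniform. Of the 16 bins of 250 kb, the first, from 25 to 25.25 Mb, had the highest level, at 78.5% in Bull1 and 74.2% in Bull2 over 243 windows. The lowest was the bin from 26.5 to 26.75 Mb, at 41.2% in Bull1 and 39.9% in Bull2 over 181 windows, of which 1 was at 80% or more in both libraries. Of 211 such bins of chromosome 23, 6 were lower than this one in Bull1 and 5 in Bull2. The profile in steps of 50 kb showed a trough in both libraries with similar edges.

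**Figure D3:**
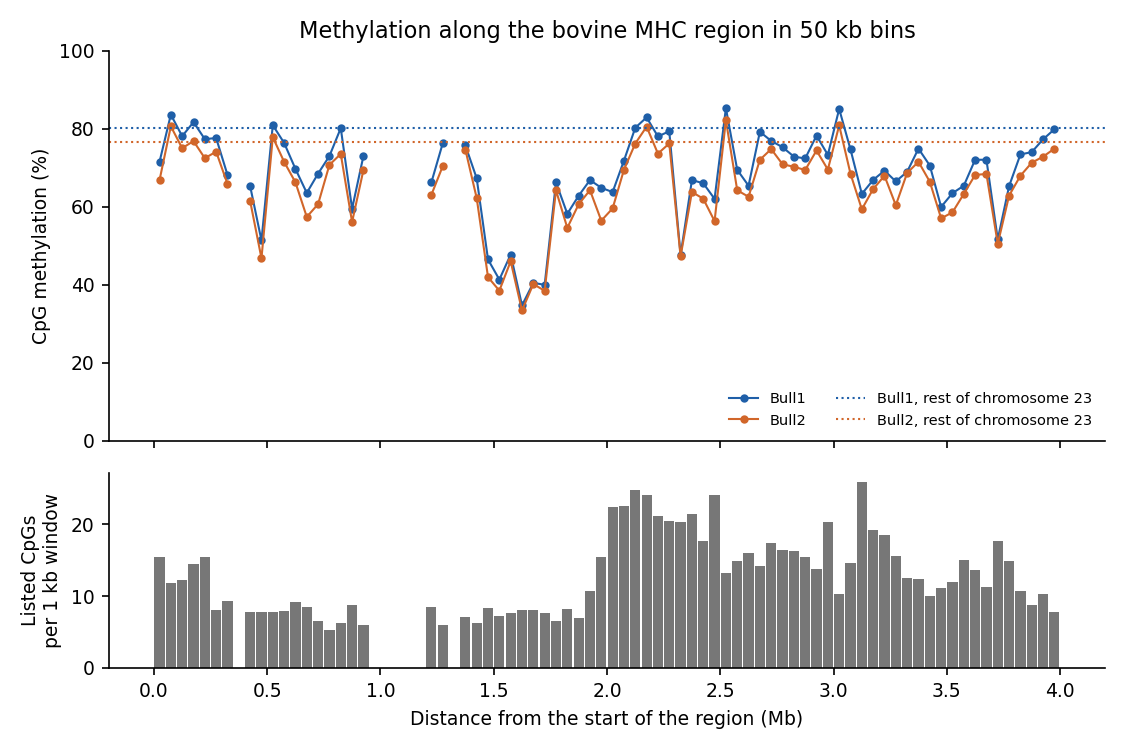
Pooled CpG methylation (%, upper panel) and listed CpG sites per kept 1 kb window (lower panel) along the MHC region in bins of 50 kb, by distance from its start (Mb), with Bull1 in blue, Bull2 in orange and dotted lines for the rest of chromosome 23 (80.3% and 76.7%); bins with fewer than 10 windows are not drawn. A trough near 1.6 Mb is shared by both libraries, and the most CpG-dense bins follow it in the last 2 Mb.

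The trough was described by the longest run of 50 kb bins below 50% in both libraries, a limit chosen after the values were seen. It ran from 26.45 to 26.75 Mb and held 210 kept windows of 300. Methylated reads were 12395 of 29505 in Bull1, a level of 42.0% (41.4 to 42.6), and 11141 of 27703 in Bull2, a level of 40.2% (39.6 to 40.8). The trough had a median of 7 listed CpG sites per window, fewer than the 10 of the remaining region, and 19.6 reads per CpG in Bull1 and 18.4 in Bull2, so it was neither CpG-dense nor shallow. Intermediate windows made up 79.5% of it, 20 windows were below 20% in both libraries and 1 was at 80% or more. Its difference between the bulls was 1.79 points. The 2857 MHC windows outside it had 70.8% in Bull1 and 67.0% in Bull2, a difference of 3.76 points, and 41.9% of them were at 80% or more in both libraries. The region outside the trough was thus still below the rest of chromosome 23 in level and in the share of highly methylated windows.

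The 194 windows below 20% in both libraries lay mostly in the CpG-dense later part of the region. From 27 to 28.25 Mb there were 113 of them, 58.2% of all, among 1145 members. The bin from 27.25 to 27.5 Mb held 33, the most of any bin. Of the 194 windows 103 had 41 or more listed CpG sites, 51 had 21 to 40 and 40 had 20 or fewer. They formed 117 runs of neighbouring windows, of which 65 were single windows and 5 had 4 windows or more.

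The 5 longest runs were of different kinds. The longest covered chr23:27035001-27041000 with 6 windows, at 4.66% in Bull1 (52 of 1116 reads) and 2.93% in Bull2 (33 of 1128 reads). Only 128 of its 280 CpG sites were usable, at 8.72 and 8.81 reads per CpG. The run at chr23:28103001-28108000, of 5 windows and 214 listed sites, had 4.08% in Bull1 and 3.60% in Bull2. The run at chr23:28176001-28180000, of 4 windows and 131 listed sites, had 3.88% in Bull1 and 3.38% in Bull2. These 3 runs were CpG-dense and almost free of methylation. The other 2 lay inside the trough and had fewer CpG sites. At chr23:26695001-26699000, 43 listed sites in 4 windows had 15.4% in Bull1 and 13.5% in Bull2, and at chr23:26713001-26717000, 24 sites in 4 windows had 10.9% and 10.3%. The genes at these runs are not named because no annotation of UMD3.1 was used here.

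Windows were compared between the libraries by a two-sided Fisher exact test on methylated and unmethylated reads with Benjamini-Hochberg adjustment over all 2358306 windows, and a window was called at an adjusted p of at most 0.05. In the MHC region 141 of 3067 windows were called, 4.60%, against a background of 7.74% over all windows and 9.08% in the rest of chromosome 23. They comprised 132 windows higher in Bull1 (4.30%, background 7.51%) and 9 lower in Bull1 (0.293%, background 0.23%). The share of calls in the region was below the background. The median window had 319 reads of both libraries together in the region, 327 over all windows and 395 in the rest of the chromosome. The depth per CpG was 17.0 reads in Bull1 and 15.6 in Bull2 in the region against 22.2 and 20.3 over all windows. Calls also varied with level. Windows with a pooled level of at least 80% made up 46.7% of the region and 75.4% of all windows. In this class 6.35% of the MHC windows were called, against a background of 8.76%. From 60% to 80% the shares were 3.48% and 4.69%, and the region was also below all windows in each lower class. The parts of depth and of level in the share were not tested. The called windows had a median absolute difference of 11.2 points in the region, against 11.3 points for the called windows of the whole data set. Of the called MHC windows 11 differed by at least 20 points, 0.359% of the region against a background of 0.390%.

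These calls rest on counting a read at each CpG it covers. When only CpG sites at least 300 bp apart were used in a window, so that a fragment was counted about once, 0 of the 3067 windows were called by the same adjusted test (78 of all windows, a background of 0.00331%), and 161 (5.25%, background 7.65%) reached p of 0.05 or less in the two-sided Fisher exact test without adjustment. The median of the reads per window then fell to 89 for both libraries together. In that count 64.8% of the windows had the higher value in Bull1. Of the 2202 windows higher in Bull1 with all sites, 1672 (75.9%) were so with spaced sites, and of the 856 lower in Bull1, 500 (58.4%). The spaced sites are part of the same reads, so a kept direction is no separate support. These shares of direction were not computed outside the region. Single CpG sites gave 0 calls among 34857 after adjustment over all sites of the genome, where the background was 0.000342% in all, 0.000321% higher and 2.09e-05% lower in Bull1. Without adjustment, 797 sites (2.29%, background 2.88%) reached p of 0.05 or less by the same exact test. Of these, 643 were higher in Bull1 (1.84%, background 2.53%) and 154 lower (0.442%, background 0.346%). The study, with a Fisher test at the same coverage minimum and threshold, reported far more differing cytosines over the genome. The reason for this was not tested.

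**Figure D4:**
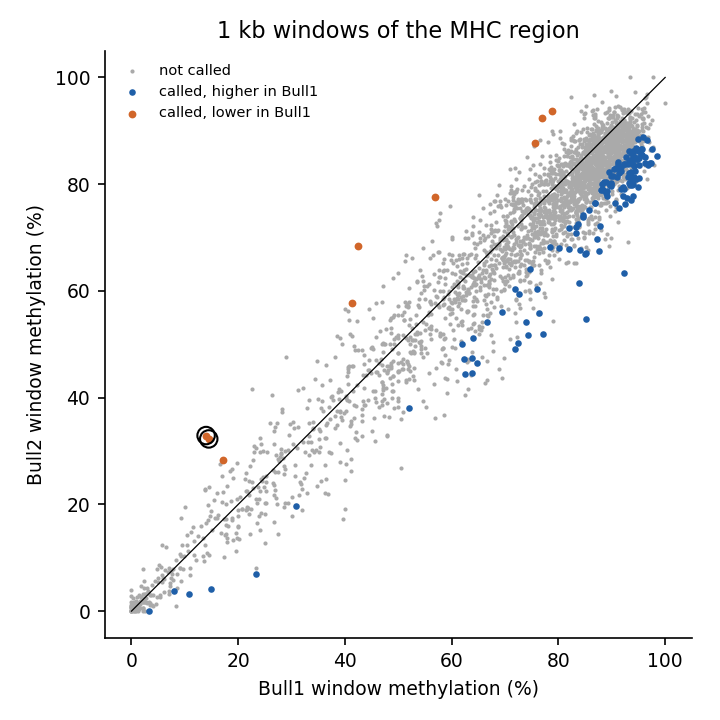
Methylation of each MHC window (%) in Bull1 (horizontal axis) and Bull2 (vertical axis), with windows not called in grey, windows called higher in Bull1 in blue and lower in Bull1 in orange, the line of equal levels, and rings around the 2 HSPA1 windows. Of the 141 called windows 132 lie below the line and 9 above it, and the ringed windows stand near 14% in Bull1 and 33% in Bull2.

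The named windows were the 5 with the largest difference in each direction among called windows with a mean depth of 10 or more reads per CpG in each library, which 128 of the 141 met. Higher in Bull1, the largest difference was at chr23:25887001-25888000, with 57 of 67 reads methylated in Bull1 (85.1%) and 58 of 106 in Bull2 (54.7%) over 4 CpG sites. The window at chr23:25301001-25302000 had 48 of 52 reads in Bull1 (92.3%) and 26 of 41 in Bull2 (63.4%) over 3 sites. The window at chr23:27798001-27799000 had 98 of 127 reads in Bull1 (77.2%) and 68 of 131 in Bull2 (51.9%) over 9 sites. Of the 16 sites of these 3 windows 15 had the higher value in Bull1, a count that their selection favours. At chr23:26992001-26993000 the levels were 71.9% in Bull1 and 49.1% in Bull2 over 9 sites, and at chr23:28546001-28547000 they were 74.4% and 51.8% over 7 sites. All 5 windows rest on few sites and on fewer than 140 reads per library. The differences of these 5 windows ran from 30.4 down to 22.6 points, with adjusted p from 0.00264 to 0.0479 in the two-sided Fisher exact test.

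Lower in Bull1, the largest difference was at chr23:26754001-26755000, just after the trough, with 45 of 106 reads in Bull1 (42.5%) and 67 of 98 in Bull2 (68.4%) over 5 sites (adjusted p = 0.00983, two-sided Fisher exact test). The window at chr23:26742001-26743000, inside it, had 71 of 125 reads in Bull1 (56.8%) and 111 of 143 in Bull2 (77.6%) over 5 sites (adjusted p = 0.0127, same exact test). At chr23:27388001-27389000 the levels were 41.4% in Bull1 and 57.7% in Bull2 over 16 sites (adjusted p = 0.00623, same exact test), of which 5 were higher, 6 lower and 5 equal in Bull1. These windows were of intermediate level in both libraries. The 2 others named were neighbours and CpG-dense. The 10 named windows all kept their direction with CpG sites 300 bp apart, but 0 of them were called in that count, with adjusted p from 0.360 to 1 in the exact test. The kept direction is no separate support, because the windows were picked for large differences and the spaced sites are part of the same reads.

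The neighbouring pair lay in the HSPA1 heat shock genes, which encode chaperones of the HSP70 family, and HSPA1L is the member known for its expression in male germ cells. At chr23:27332001-27333000, with 88 CpG sites, 258 of 1845 reads were methylated in Bull1 (13.98%) and 736 of 2237 in Bull2 (32.9%), a difference of -18.9 points (adjusted p = 7.06e-41, two-sided Fisher exact test). At chr23:27333001-27334000, with 89 sites, 168 of 1160 reads were methylated in Bull1 (14.5%) and 646 of 2002 in Bull2 (32.3%), a difference of -17.8 points (adjusted p = 4.81e-25, same exact test). The latter window contains 9 sites that the study had selected from these libraries, so its p is not independent of that selection. Of the 141 MHC windows with 41 or more CpG sites, 123 differed by at most 5 points, and these were the 2 with a value at least 10 points lower in Bull1. With CpG sites 300 bp apart, 4 sites a window, the levels were 17.7% in Bull1 and 29.5% in Bull2 in the first and 4.08% and 20.3% in the second, and neither was called (adjusted p = 0.717 and 0.485, exact test).

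The difference filled a continuous stretch, with bounds that follow from the rule used to take it. It was taken, after the values were seen and with no test, as the longest run of 100 bp segments with Bull2 at least 5 points above Bull1, which was chr23:27332101-27333700, a length of 1600 bp with 150 usable CpG sites. Bull1 had 349 of 2420 reads methylated there, 14.4% (13.0 to 15.9), and Bull2 had 1326 of 3705, 35.8% (34.2 to 37.4). The 16 segments ran from 4.62% to 21.6% in Bull1 and from 22.5% to 46.4% in Bull2, a separation that the choice of the stretch favours. Of its 150 sites 140 had the lower value in Bull1 and 10 the higher, and 0 sites were called after adjustment over the genome.

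Directly before and after this stretch the pooled levels of the libraries were close, which the choice of its bounds favours. In the 1100 bp before it, 20 sites had 18.3% in Bull1 (124 of 678 reads) and 18.2% in Bull2 (88 of 483). In the 800 bp after it, 31 sites had 2.996% in Bull1 (8 of 267) and 0.880% in Bull2 (3 of 341). The window at chr23:27331001-27332000 had 21.4% and 19.0%, and the one at chr23:27334001-27335000 had 28.7% and 29.9%. Single segments of the latter window differed in both directions. At chr23:27334701-27334800 the levels were 32.9% in Bull1 and 42.6% in Bull2, and at chr23:27334901-27335000 they were 58.6% and 50.8%. Further on, chr23:27336001-27337000 was higher in Bull1 over 22 sites, with 93.5% in Bull1 and 77.0% in Bull2 (adjusted p = 2.38e-08, two-sided Fisher exact test). That window lay outside the naming rule and was chosen after its values were seen. Like all 3067 windows of the region, it was not called with CpG sites 300 bp apart.

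The libraries also differed in depth here. In the stretch Bull1 had 16.1 reads per CpG and Bull2 24.7, a ratio of Bull2 to Bull1 of 1.53. Before it the ratio was 0.712 and after it 1.28, and the median over all MHC windows was 0.902, with 5% to 95% of windows between 0.611 and 1.39. Bull2 had more reads in 15 of the 16 segments of the stretch. The first HSPA1 window had a ratio of 1.21 and the second 1.73, and 32 MHC windows had a higher ratio than the second. The HSPA1 family has closely related copies elsewhere in mammalian genomes, and how reads were placed among them was not measured here. The part of depth in the difference was not tested. Without these 2 windows the region stood at 69.6% in Bull1 and 65.9% in Bull2, a difference of 3.71 points.

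**Figure D5:**
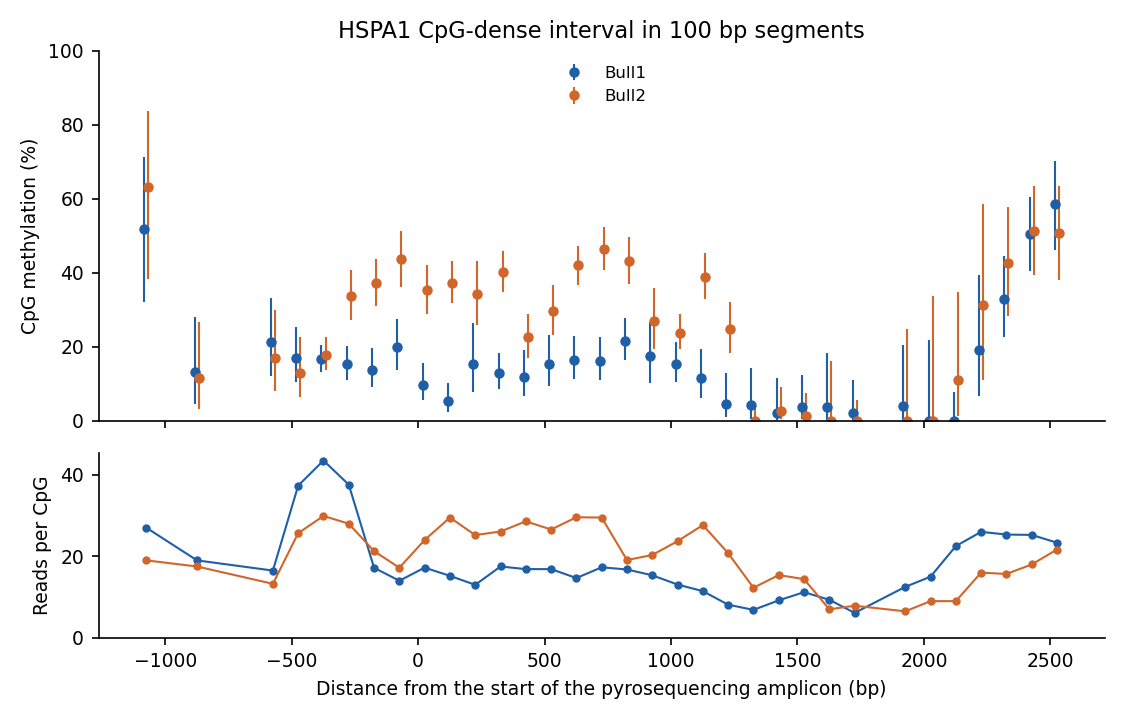
CpG methylation with exact 95% intervals for counting error (%, upper panel) and reads per CpG (lower panel) in 100 bp segments of the HSPA1 interval, by distance from the first CpG of the pyrosequencing amplicon (bp), for Bull1 (blue) and Bull2 (orange). In 16 neighbouring segments Bull1 lies between 4.62% and 21.6% and Bull2 between 22.5% and 46.4%, and Bull2 has more reads per CpG over most of them (24.7 against 16.1 in the stretch).

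The amplicon read by the primers above covers 6 CpG sites from 27332432 to 27332483, which the study described as a random choice. In the sequencing libraries 9 of 104 reads were methylated there in Bull1, 8.65% (4.03 to 15.8), and 47 of 145 in Bull2, 32.4% (24.9 to 40.7). Site by site, Bull1 had 6.25%, 15.8%, 5.88%, 11.8%, 5.56% and 5.88%, and Bull2 had 17.6%, 42.3%, 26.1%, 46.7%, 26.1% and 26.9%. All 6 sites had the higher value in Bull2, each on 16 to 30 reads. The study reported a high correlation between pyrosequencing and sequencing levels over all its chosen regions together. Its pyrosequencing values for these 6 sites were not used here.

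The study's own list of differentially methylated regions that overlap promoters or gene bodies held 3 entries in the MHC region. Its regions outside genes were not looked up here. They were selected from these same libraries, so their differences are given as a description and with no test. The entry in the promoter of HSPA1L and an exon of its neighbour HSPA1A lies in the same stretch as the amplicon, with 9 CpG sites from 27333167 to 27333239. It had 26 of 151 reads methylated in Bull1 (17.2%) and 109 of 213 in Bull2 (51.2%), and all 9 sites had the lower value in Bull1. The second entry is listed in the promoter of LY6G6C, a member of the Ly6 family of surface proteins, and in an exon and intron of C6orf25. Its 13 sites from 27405644 to 27405882 had 6 of 55 reads methylated in Bull1 (10.9%, 4.11 to 22.2) and 32 of 60 in Bull2 (53.3%, 39.997 to 66.3). The third is listed in the promoter of MDC1, a mediator of the DNA damage checkpoint, and in an exon and the 5′ UTR of PPP1R18. Its 7 sites from 28128541 to 28128574 had 20 of 33 reads methylated in Bull1 (60.6%, 42.1 to 77.1) and 1 of 43 in Bull2 (2.33%, 0.0589 to 12.3). The first entry was covered by 16.8 reads per CpG in Bull1 and 23.7 in Bull2, whereas the LY6G6C entry had 4.23 and 4.62 and the MDC1 entry 4.71 and 6.14.

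The windows around the shallow entries looked different from the entries. The window with the LY6G6C sites, chr23:27405001-27406000, had 14.3% in Bull1 and 17.0% in Bull2 over 30 usable sites, and only 3 of the 13 sites of the entry reached 5 reads in both libraries. The window with the MDC1 sites, chr23:28128001-28129000, had 7.92% in Bull1 and 3.82% in Bull2 over 43 usable sites, 5 of which belong to the entry. It was low in both libraries. No p is given for these windows because they contain the selected sites. The MDC1 window is among the 141 called windows counted above, and the LY6G6C window is not.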

How the data were processed

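Sperm DNA of Bull1 and Bull2 was sequenced as 1 whole-genome bisulfite library per bull, and each library was its own group by its label. According to the methods and the submitters' processing notes, the authors trimmed and checked reads (FastQC 0.11.2, Trim Galore 0.4.0), aligned them to UMD3.1 with Bismark and Bowtie2 (0.14.5 in these notes) and removed duplicates. The deposited files give for each CpG the methylation level as a fraction and the counts of methylated, unmethylated and all reads, without normalization. The levels here were computed from the deposited counts. Whether positions start at 0 or 1, and whether strands were merged, is not given in the sources used here. A read placed at the wrong copy of a gene, or not placed, changes the level of duplicated sequence, and MHC genes are such sequence.

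CpG sites needed at least 5 reads in both libraries and windows at least 3 such sites. Fisher tests (two-sided, Benjamini-Hochberg adjustment, false discovery rate 0.05) ran over all windows or all sites of 29 autosomes and X. Their code was tested on simulated data (Python 3.11.15, NumPy 2.4.6, pandas 2.3.3, SciPy 1.17.1, Numba 0.67.0, Matplotlib 3.10.9). The named windows were the 5 largest called differences per direction with a mean depth of 10 or more reads per CpG in each library, the 5 longest runs below 20%, and the windows of the study's amplicon and listed regions. Gene names at these regions came from the study's gene table, except HSPA1A, which came from the study's text. Promoter levels of listed MHC genes were planned but not run, because an annotation of UMD3.1 was not used here. The region and lists were chosen with earlier results of these data known. Alternatives covered coverage limits, thinning, window rules, weighting, region bounds and thresholds.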

Additional observations from a re-analysis of the deposited data

How the results depend on the processing

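No paired analysis was possible because replicates are lacking, with 1 library per bull, and no library could be left out. The 3.69 point difference of the region became 3.42 with at least 10 usable CpG sites per window and 2.61 as an unweighted mean of site levels. Its gap to the rest of chromosome 23, 0.04 points, became -0.79 unweighted and -0.46 against all other autosomal windows, so the gap depends on weighting and on the comparison set. The 141 called windows became 265 for 24 to 30 Mb (5.51% against 7.74% over all windows), 49 at a false discovery rate of 0.01 (1.60% against 2.51%), 11 with at least 20 points required (0.359% against 0.390%) and 0 with CpG sites at least 300 bp apart, which uses fewer reads per window. Under the other 6 alternatives 118 to 159 were called, and the region stayed below all windows in each. With at least 10 usable CpG sites per window, 131 of 1418 members were called (9.24% against 15.3%). The 6.33% of windows below 20% became 5.43% with at least 10 reads, 11.4% with at least 10 usable CpG sites, 5.36% for 24 to 30 Mb and 4.53% below a limit of 10%. The 0 called sites became 797 when p of the exact test was not adjusted and stayed at 0 in the other 4 alternatives. Promoter levels and both of their alternatives were not run. At the largest p of a called site, 1.7e-07 in the exact test, 20113 of the 34857 usable sites (57.7%) were deep enough for a call at a difference of 0% against 100%, and the others were not.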
